A study of Mus musculus with 4 samples.

Results

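The genes that carry immunoglobulin A (IgA) into the gut lumen and the genes of the plasma cells that make it were followed in colonic epithelial cells of mice with colitis. The group was chosen by name and holds 8 genes: *Pigr* and *Ccl28*, which epithelial cells express, and *Jchain*, *Igha*, *Igkc*, *Ighm*, *Mzb1* and *Tnfrsf17*, which plasma cells express. A row was found for 7 of the 8 among the 16015 genes listed, and all 7 passed the filter of a mean normalized count of at least 10. *Tnfrsf17*, the plasma cell receptor BCMA, had no row, and no value is given for it. The genes were picked with the values of this same comparison in view, so their levels and differences are given as a description, without a test.

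RNA was sequenced from the colonic epithelium of 2 control mice and 2 *Bmal1* cKO mice on day 7 of colitis induced by dextran sulfate sodium (DSS), which mice of both groups drank at 3% for 5 days before 2 days of plain water. Control mice are labelled WT, and the methods describe control animals of the floxed line, *Bmal1* fl/fl. The cKO mice carried *Villin-CreERT2* with *Bmal1* fl/fl, and tamoxifen was given on 5 successive days. The Villin promoter, which drives this Cre, is active in intestinal epithelium and not in B cells or plasma cells. The mice were on a C57BL/6 background and were 2 to 4 months old. Crypts were detached with EDTA and scraping and were not sorted, so that cells of the lamina propria could enter a sample. *Bmal1* encodes the activator of the circadian clock that pairs with CLOCK, and the comparison asks what its loss from the epithelium changes in inflamed colon.

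Plasma cells in the lamina propria secrete IgA as a dimer joined by the J chain, which *Jchain* encodes. The polymeric immunoglobulin receptor, encoded by *Pigr*, binds the J chain at the basolateral face of an epithelial cell, carries the dimer through the cell and is cleaved at the apical face, and the extracellular piece stays on the antibody as secretory component. CCL28 is a chemokine of mucosal epithelium that attracts IgA plasma cells through the receptor CCR10. *Igha* and *Ighm* encode the constant regions of the heavy chains of IgA and IgM, *Igkc* encodes that of the kappa light chain, and *Mzb1* encodes a chaperone of the endoplasmic reticulum that helps antibody assembly.

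The promoters of both epithelial genes are shown because the E-box CACGTG is the element at which the CLOCK and BMAL1 pair binds. Each run below is the 250 bases before the start of the gene, read from RefSeq on GRCm38.p6 and written 5′ to 3′ on the plus strand. The *Pigr* window is chr1:130826434-130826683 and the *Ccl28* window is chr13:119623569-119623818. Capitals mark CACGTG.
Pigr: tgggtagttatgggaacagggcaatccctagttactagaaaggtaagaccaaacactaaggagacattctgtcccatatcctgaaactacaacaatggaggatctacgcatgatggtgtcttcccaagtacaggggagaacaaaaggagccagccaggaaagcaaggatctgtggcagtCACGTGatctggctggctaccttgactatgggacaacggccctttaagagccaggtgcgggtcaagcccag
Ccl28: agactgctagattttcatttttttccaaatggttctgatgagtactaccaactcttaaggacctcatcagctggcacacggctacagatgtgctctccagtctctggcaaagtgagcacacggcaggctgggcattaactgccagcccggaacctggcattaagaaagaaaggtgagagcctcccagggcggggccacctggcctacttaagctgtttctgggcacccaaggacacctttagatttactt
The *Pigr* window held 1 CACGTG, placed 71 to 66 bases before the start, and the *Ccl28* window held none. The letters CACGTG read the same on both strands, and 6.02% of 32851 RefSeq promoter windows of the same length (1978) held them. The looser letters CANNTG, which include CACGTG and also read the same on both strands, occurred 2 times before *Pigr* and 4 times before *Ccl28*, against 66.2% of all windows with at least 1. These matches are letters in a window and were not tested as sites.

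Between 10312791 and 14156639 reads per library fell on the listed genes. *Arntl*, the gene of BMAL1, had normalized counts of 358 and 342 in the controls and 341 and 289 in the mice labelled cKO (log2 difference −0.16 ± 0.14, SE, adjusted p = 0.389, limma with Benjamini-Hochberg adjustment). This gene-level count also takes reads from exons that Cre does not remove, so it is a weak check of the deletion, and the second group is named here as labelled. For mice of this line, the authors report loss of epithelial *Bmal1* expression by immunoblot and immunohistochemistry. The epithelial label fitted its markers, with *Epcam* between 17455 and 21771 and *Krt8* between 33319 and 39915 in the 4 libraries. Control mouse 1 stood apart for lymphoid and stromal genes, as the values below show, and results that involve plasma cells are therefore given with and without that mouse.

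*Pigr* was among the most abundant transcripts of every library. Its normalized counts were 23297 and 29829 in the controls and 32074 and 48059 in the cKO mice. Both cKO mice lay above both controls, but cKO mouse 1 exceeded control mouse 2 by less than the controls differed from each other. The group means were 26563 ± 4619 and 40066 ± 11303 (SD, n = 2 each), a ratio of 1.51, and the log2 difference was 0.57 ± 0.25 (SE). It was 0.40 without control mouse 1 and 0.28 without cKO mouse 2, and 0.35 with library total scaling and 0.86 with scaling by epithelial markers. Ranked by normalized count among all listed genes, *Pigr* was in place 24 and 17 in the controls and in place 12 and 6 in the cKO mice. The gene lies at chr1:130826684-130852249 on the plus strand (GRCm38, GENCODE M21).

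*Ccl28* showed the clearest separation of the groups. Its normalized counts were 868 and 901 in the controls and 4965 and 5799 in the cKO mice. The controls nearly coincided, and the lower cKO mouse was still far above them. The means were 885 ± 23.2 and 5382 ± 589 (SD, n = 2 each), 6.08-fold higher in cKO mice, with a log2 difference of 2.60 ± 0.11 (SE). Without control mouse 1 the log2 difference was 2.57. Across genes, the log2 difference fell with GC content (Spearman rho = −0.61 over 13975 genes, which are not independent replicates), and *Ccl28* has a GC content of 40.8% in its exons against a median of 49.5%. With each library corrected for GC content and length, the log2 difference of *Ccl28* was 1.63, and that of *Pigr*, whose GC content is 49.7%, was 0.55. *Ccl28* lies at chr13:119623819-119654359 on the plus strand.

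Since both genes were higher in the cKO mice by different amounts, their ratio moved. Per kilobase of exon, *Pigr* stood 32.3-fold and 39.8-fold above *Ccl28* in the controls and 7.77-fold and 9.97-fold above it in the cKO mice. The order of the pair did not change in any mouse.

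**Figure D1:**
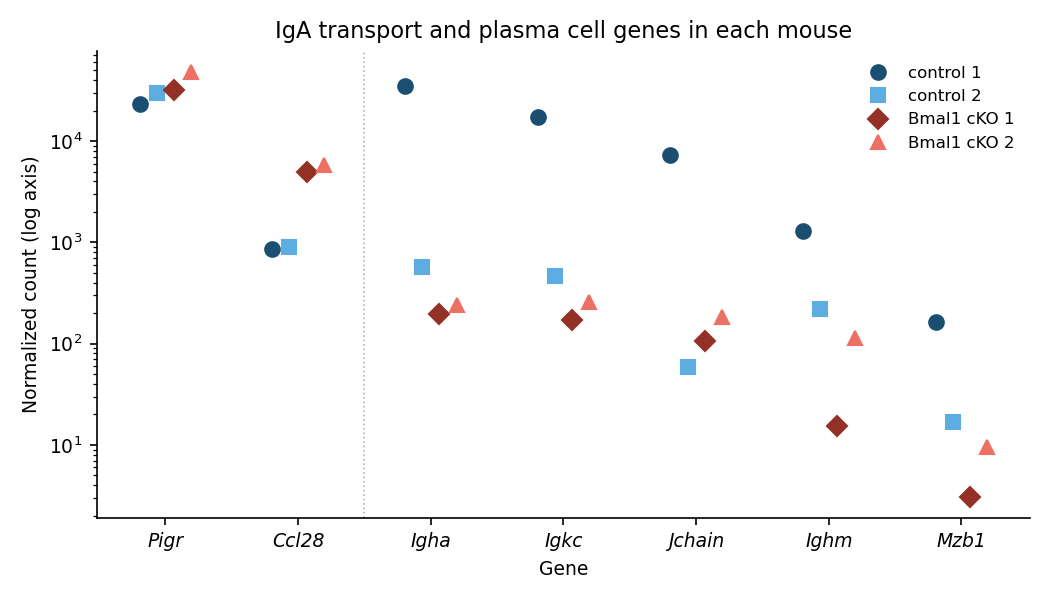
Normalized counts of the 7 listed genes in each mouse, on a log scale, with 1 point per mouse and control and Bmal1 cKO mice in different colours. Pigr and Ccl28 lie higher in both cKO mice, whereas the 5 plasma cell genes are highest in control mouse 1.

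The plasma cell genes did not separate the groups in this way, because in each of the 5 the control mice differed from each other by a larger factor than control mouse 2 differed from the cKO mean. *Igha* had normalized counts of 34580 and 565 in the controls and 195 and 239 in the cKO mice. Control mouse 1 was 61.2-fold above control mouse 2, and control mouse 2 was 2.60-fold above the mean of the cKO mice. The log2 difference was −4.35 ± 1.81 (SE) with both controls and −1.38 without control mouse 1. On the recovered reads, edgeR and DESeq2 gave −6.36 and −6.35 with both controls. In control mouse 1 *Igha* was in place 14 of all listed genes by normalized count, above *Pigr*, and in the other 3 mice it was in place 4823, 7934 and 7388. *Igha* lies at chr12:113254830-113260236 on the minus strand.

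*Igkc* followed *Igha*, with 17420 and 468 in the controls and 171 and 258 in the cKO mice. The controls differed 37.2-fold, and control mouse 2 was 2.18-fold above the cKO mean. The log2 difference was −3.76 ± 1.60 (SE), or −1.15 without control mouse 1, and −5.41 and −5.39 by edgeR and DESeq2 with both controls. The groups of *Igha* and *Igkc* did not overlap, but in both genes nearly all of the gap between the group means came from control mouse 1. *Igkc* lies at chr6:70726435-70726966 on the plus strand.

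*Jchain* was the exception among the plasma cell genes, since its groups overlapped. It had normalized counts of 7216 and 59.3 in the controls and 105 and 182 in the cKO mice. Control mouse 1 was 122-fold above control mouse 2, the widest gap between the controls of the 7 genes, and control mouse 2 was the lowest of the 4. The log2 difference was −2.24 ± 2.11 (SE) with both controls and turned to 1.21 without control mouse 1, when the cKO mean stood 2.42-fold above control mouse 2. With both controls it was −4.70 by edgeR, −4.67 by DESeq2 and −3.38 with the GC correction. No direction of *Jchain* between the groups can be drawn from these 4 mice. The gene lies at chr5:88519809-88527891 on the minus strand.

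*Ighm* was spread within both groups. Its normalized counts were 1294 and 221 in the controls and 15.4 and 114 in the cKO mice, and both controls were above both cKO mice. The controls differed 5.85-fold, the smallest gap among the plasma cell genes, and control mouse 2 was 3.43-fold above the cKO mean. The log2 difference was −3.63 ± 1.16 (SE), or −2.36 without control mouse 1. *Ighm* lies at chr12:113418558-113422730 on the minus strand.

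*Mzb1* was low in 3 of the 4 mice. It had 194 and 20 reads in the controls and 3 and 7 reads in the cKO mice, which are normalized counts of 164, 16.9, 3.09 and 9.46. The groups did not overlap, but in the cKO mice the values lay at or near the 3 reads taken as the smallest detectable amount. The log2 difference was −3.06 ± 1.16 (SE), or −1.46 without control mouse 1.

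The groups did not overlap for 4 of the 7 genes lower in cKO mice and 2 higher, against 41.7% and 40.3% of the 13983 genes tested. Nothing is read from these counts, since the genes were picked on this comparison. Less plasma cell RNA in a bulk sample may reflect fewer plasma cells in the tissue, fewer carried into the sample, or less RNA in each. These cannot be told apart. Receptor and antibody transcripts were in very different proportion. Per kilobase of exon, *Igha* was 2.24 times *Pigr* in control mouse 1, 0.0286 times in control mouse 2, and 0.00919 and 0.00751 times in the cKO mice.

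**Figure D2:**
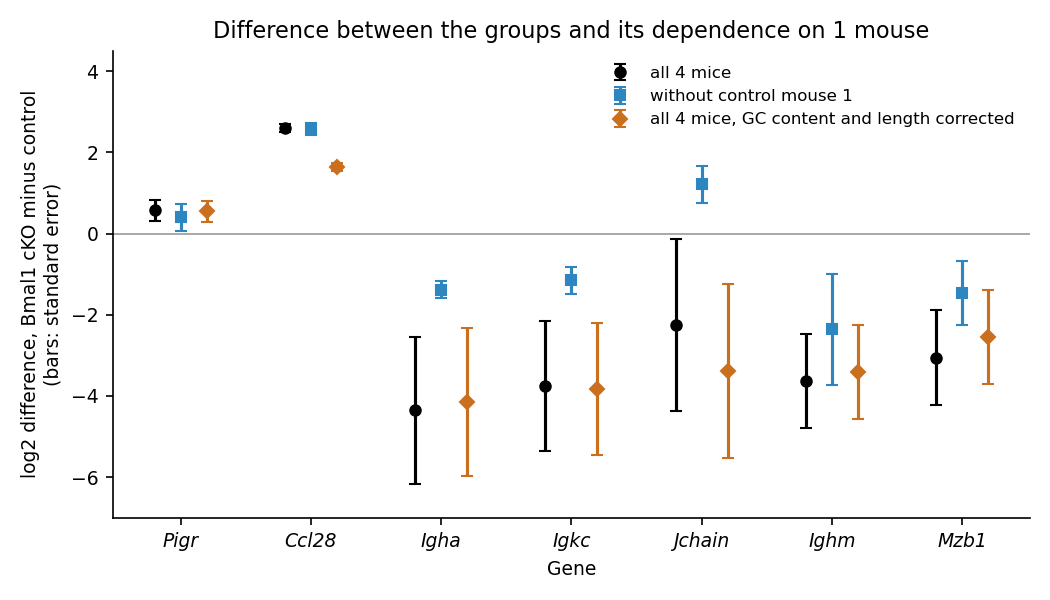
Log2 difference, cKO minus control, of the 7 listed genes with both controls, without control mouse 1, and corrected for GC content and length, with bars for the standard error. Jchain turns from −2.24 to 1.21 without control mouse 1, and Ccl28 falls to 1.63 after the correction.

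All listed immunoglobulin genes together took 0.540% of the reads of control mouse 1, 0.0145% of control mouse 2, and 0.00406% and 0.00670% of the cKO mice. The makeup of these reads was not alike in the 4 mice. *Igha* gave 92.6% of 44202 heavy chain constant reads in control mouse 1 (95% Wilson interval 92.4 to 92.8) and 57.7% of 1156 in control mouse 2 (54.8 to 60.5). In the cKO mice it gave 81.5% of 233 reads (76.1 to 86.0) and 51.8% of 342 (46.5 to 57.0). Each group thus held 1 mouse with a high and 1 with a low IgA share, and the intervals of the groups' lower mice overlapped. These intervals cover counting error and not the spread between mice.

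The heavy chains of IgM, IgD and IgG made up the rest almost wholly. *Ighm* gave 3.47% and 22.6% of heavy chain constant reads in the controls and 6.44% and 24.6% in the cKO mice. *Ighd*, the IgD chain that naive B cells carry, gave 2.03% and 6.31% in the controls and 5.58% and 20.2% in the cKO mice. The 4 listed IgG genes together gave 1.86% and 13.4% in the controls and 6.44% and 3.51% in the cKO mice. The share of IgG was highest in control mouse 2 and the share of IgD in cKO mouse 2, and neither share separated the groups. Kappa took most of the light chain constant reads in every mouse, with *Igkc* between 94.3% and 98.5%.

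**Figure D3:**
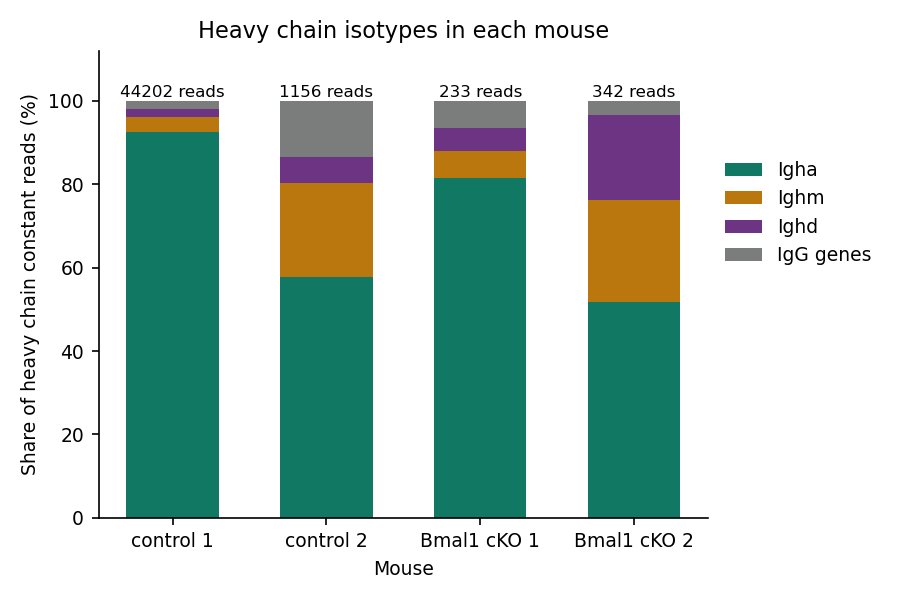
Share of heavy chain constant reads, in percent, taken by IgA, IgM, IgD and the IgG genes in each mouse. IgA took 92.6% and 57.7% in the controls and 81.5% and 51.8% in the cKO mice.

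Among the other constant genes, all were highest in control mouse 1. The normalized counts of *Ighg2b* were 395 and 105 in the controls and 11.3 and 5.41 in the cKO mice, and those of *Ighg3* were 26.2, 18.6, 2.06 and 0. In these 2 IgG genes control mouse 2 also lay clearly above both cKO mice. *Ighd* had 758 and 61.8 in the controls and 13.4 and 93.3 in the cKO mice, *Ighg1* had 148, 4.24, 2.06 and 9.46, and *Ighg2c* had 127, 3.39, 0 and 1.35. The groups overlapped for *Ighd* and *Ighg1*. The lambda genes were *Iglc1* with 357, 7.62, 9.26 and 2.70, *Iglc2* with 71.8, 3.39, 0 and 1.35, and *Iglc3* with 79.4, 0.847, 1.03 and 0. *Ighe* had 17 reads in control mouse 1 and none in the other 3, and it did not reach the filter on low values. Outside control mouse 1, the counts of these 9 genes were low, and *Ighg2b*, *Ighd* and *Ighg3* were the ones with more than 10 reads in any mouse.

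The variable segments, which each B cell clone joins to its constant genes, had a row for 75, of which 35 were heavy, 37 kappa and 3 lambda. Their summed normalized counts were 7588 and 272 in the controls and 129 and 176 in the cKO mice. All 75 were highest in control mouse 1, but a segment could be listed through the reads of that mouse alone, so this order is partly built in. A read was present for 75 and 64 of them in the controls and for 36 and 43 in the cKO mice, numbers that also follow the total of segment reads. In control mouse 1 a few segments led, with *Ighv1-81* taking 73.0% of 4378 heavy segment reads and *Igkv8-27* taking 58.6% of 4053 kappa segment reads. *Ighv1-81* took 2.31% of 130 reads in control mouse 2 and 26.5% and 14.5% of 83 reads each in the cKO mice. *Igkv8-27* took 0.549% of 182 reads in control mouse 2 and 0 of 36 and 0 of 43 in the cKO mice, which allow shares of up to 8.33% and 6.98%. Both segments were picked after their values were seen, and reads can be split among near-identical segments, so the shares of single segments are uncertain. Of the 25 segments that passed the filter on low values, 3 would have passed on the other 3 mice. Calls of lower segments are therefore largely built in, and nothing is read from their number, which was 3 in the fit reported.

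Other genes of the plasma cell programme gave no common direction. Of 20 named, 17 were tested, 3 were lower in cKO mice (17.6%, against 27.7% of all genes tested) and 4 higher (23.5%, against 29.0%), and 14 of the 17 would have passed the filter on low values without control mouse 1. The median log2 difference was 0.02 against −0.04 over all genes tested. Many genes on this list are also active in other cells of the colon, including the 4 that were higher. *Cd38*, an ectoenzyme of many cell types, had 6741 and 5006 in the controls and 22419 and 23661 in the cKO mice (log2 difference 1.99 ± 0.17, SE, adjusted p = 0.000718, limma). *Sec11c*, a subunit of the signal peptidase, was higher by 0.92 ± 0.12 (adjusted p = 0.0022, limma), and *Fkbp11*, a foldase of the secretory pathway, by 0.83 ± 0.18 (adjusted p = 0.0129, limma). The fourth higher gene was the elongation factor *Ell2*, which was not called with the GC correction (adjusted p = 0.0812, limma). *Xbp1*, which drives the secretory programme in plasma cells and also in secretory epithelium, had 3280 and 2476 in the controls and 3445 and 4236 in the cKO mice and did not pass (adjusted p = 0.0883, limma). *Prdm1*, the gene of BLIMP1, had 186 and 201 in the controls and 257 and 184 in the cKO mice, and the groups overlapped. With the GC correction 1 of the 17 was lower (5.88%, against 17.8% of all genes) and 5 higher (29.4%, against 18.05%). The median was then −0.27.

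Some genes of this list had the order of the immunoglobulins, and 7 of the 17 were highest in control mouse 1. *Pou2af1*, a coactivator in B cells, had 387 and 28.8 in the controls and 6.17 and 18.9 in the cKO mice (adjusted p = 0.080, limma). *Derl3*, of the degradation pathway of the endoplasmic reticulum, had 49.8, 11.0, 3.09 and 2.70 (adjusted p = 0.0541, limma), and *Irf4*, a factor needed for plasma cells, had 110, 6.78, 3.09 and 13.5 (adjusted p = 0.279, limma). None of the 3 passed, and in each control mouse 1 was far above the other mice. The 3 called lower were *Tnfrsf13b*, the receptor TACI, *Sdc1*, the syndecan CD138 of plasma cells and epithelium, and *Cd93*, which endothelial cells carry as well. *Sdc1* had 3547 and 3379 in the controls and 2408 and 2061 in the cKO mice (log2 difference −0.64 ± 0.11, adjusted p = 0.00572, limma), but 0.01 with the GC correction. *Cd93* had 261 and 269 in the controls and 19.5 and 10.8 in the cKO mice (log2 difference −4.09 ± 0.36, adjusted p = 0.000782, limma), and there the controls were alike. *Tnfrsf13b* was not called with the GC correction (adjusted p = 0.0542, limma). Without control mouse 1, *Cd93* and *Sdc1* were lower and *Sec11c* and *Cd38* higher among the 17.

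Genes of B cells before the plasma cell stage had lower estimates in the cKO mice, and the estimates were smaller without control mouse 1. All 22 were tested, all 22 had a negative log2 difference, and 5 passed, which is 22.7% against 27.7% of all genes tested (median −2.82, against −0.04 over all genes tested). The count called was unstable, at 17 with DESeq2 and 16 with scaling by epithelial markers, where 3803 and 2767 of all 13983 genes were lower. Of the 22, 17 would have passed the filter on low values on the other 3 mice alone. In all 22 control mouse 1 was the highest of the 4. Without it, 20 of the 22 were negative and the median was −1.19. *Cd79a*, a signalling chain of the B cell receptor, had 559 and 43.2 in the controls and 5.14 and 6.76 in the cKO mice. Its log2 difference was −4.51 ± 1.18 (SE, adjusted p = 0.0229, limma), and −2.68 without control mouse 1. With the GC correction it was −3.90 and not called (adjusted p = 0.0527, limma). *Cd37*, a tetraspanin of B cells, had 560 and 168 in the controls and 13.4 and 37.8 in the cKO mice (log2 difference −3.70 ± 0.72, adjusted p = 0.00868, limma). The other 3 called were the kinase *Blk*, the factor *Spib* and the adaptor *Blnk*, and *Blk* was not called with the GC correction (adjusted p = 0.0840, limma). *Blnk* was high in every mouse, at 1461 and 1328 in the controls and 888 and 1098 in the cKO mice (log2 difference −0.50, adjusted p = 0.0251, limma). *Fcmr*, the receptor of IgM, had 203 and 12.7 in the controls and 2.06 and 5.41 in the cKO mice and did not pass (adjusted p = 0.0677, limma). *Ms4a1*, the gene of CD20, had 388, 51.7, 43.2 and 108, and the complement receptor *Cr2* had 335, 34.7, 38.1 and 150. In those last 2 genes cKO mouse 2 was above control mouse 2, so the groups overlapped.

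Signals that switch B cells to IgA or bring them to the gut came next. Of 26 genes, 23 were listed and 19 tested, 8 of them lower (42.1%, against 27.7% of all genes tested) and 1 higher (5.26%, against 29.0%) in the cKO mice (median −1.87, against −0.04 over all genes tested). Of the 19, 16 would have passed the filter on low values on the other 3 mice alone, and *Tgfb3* and *Madcam1*, both called lower, would not, so the share called lower is partly built in. Without control mouse 1 the median was −1.08, and 14 of the 19 were negative. *Ccl25*, a chemokine that draws cells bearing CCR9 to the gut, was the higher gene, at 90.4 and 99.1 in the controls and 290 and 266 in the cKO mice (log2 difference 1.54 ± 0.18, adjusted p = 0.00156, limma), but with the GC correction it was at 0.41 and not called (adjusted p = 0.125, limma). *Ccl20*, another epithelial chemokine on the list, had 146 and 83.9 in the controls and 63.8 and 87.9 in the cKO mice and did not pass (log2 difference −0.56, adjusted p = 0.227, limma), but was called lower with the GC correction (−1.64, adjusted p = 0.0217, limma). *Ccr10*, the receptor of CCL28, had 15 and 13 reads in the controls and 3 and 4 in the cKO mice and did not reach the filter on low values.

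The 8 lower genes included signals of stroma and of leukocytes. *Cxcl12*, a stromal chemokine that retains plasma cells, had 914 and 77 reads in the controls and 0 and 2 in the cKO mice, a ratio of 359 with the reads of each group pooled over its size factors (95% exact counting interval 99.1 to 2967). Control mouse 1 carried much of it, and the normalized count of control mouse 2 was 48.3 times the cKO mean. That lies below the interval, which pools the mice of a group and leaves out the spread between mice. The same holds for *Madcam1* below. *Il10*, an anti-inflammatory cytokine that also favours IgA, had 22 and 127 reads in the controls and none in the cKO mice, so it was at least 17.7-fold lower against a floor of 3 reads in each cKO library. The bound was 5.21-fold with control mouse 1 alone and 30.1-fold with control mouse 2 alone. *Madcam1*, the address molecule of gut vessels, had 155 and 24 reads in the controls and 0 and 2 in the cKO mice, a pooled ratio of 64.8 (17.7 to 539), and control mouse 2 was at 15.0 times the cKO mean. *Madcam1* was not called without control mouse 1 (adjusted p = 0.0721, limma) or with the GC correction (adjusted p = 0.0683, limma). In *Il10* control mouse 2 was the higher control, unlike in the immunoglobulin genes. The transforming growth factor *Tgfb1*, which directs the switch to IgA, had 486 and 241 in the controls and 19.5 and 31.1 in the cKO mice (log2 difference −3.74 ± 0.43, adjusted p = 0.0015, limma). The other 4 called lower were *Tgfb3*, *Aldh1a3*, which makes retinoic acid, and *Itga4* and *Itgb7*, the chains of the integrin that binds MADCAM1. With the GC correction *Tgfb3* (adjusted p = 0.0840), *Aldh1a3* (0.0653) and *Itgb7* (0.180) were not called by limma. Without control mouse 1 the log2 differences of *Cxcl12*, *Il10* and *Tgfb1* were −5.10, −6.76 and −3.24. The cytokines APRIL and BAFF, which keep plasma cells alive, did not pass in the fit reported. *Tnfsf13*, the gene of APRIL, had 99.7 and 102 in the controls and 88.5 and 159 in the cKO mice (adjusted p = 0.569, limma), and *Tnfsf13b*, the gene of BAFF, had 161, 107, 94.6 and 60.8 (log2 difference −0.78, adjusted p = 0.100, limma). With the GC correction *Tnfsf13b* was at −1.60 and called lower (adjusted p = 0.0212, limma). *Il15* had 63.4 and 95.7 in the controls and 136 and 137 in the cKO mice (adjusted p = 0.0547, limma), and *Aldh1a1* had 458, 411, 434 and 599 (adjusted p = 0.316, limma).

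Genes known to act on *Pigr* transcription, in the interferon, NF-κB, Toll-like receptor and interleukin pathways, moved both ways. Of 27 genes, 25 were tested, 13 were lower (52.0%, against 27.7% of all genes tested) and 6 higher (24.0%, against 29.0%) in the cKO mice (median −0.47, against −0.04 over all genes tested). Those higher included the receptor of bacterial lipopolysaccharide *Tlr4*, at 563 and 501 in the controls and 1784 and 1867 in the cKO mice (log2 difference 1.78 ± 0.10, adjusted p = 0.000533, limma). *Tlr3*, the receptor of double-stranded RNA, had 445 and 396 in the controls and 1315 and 1262 in the cKO mice (log2 difference 1.61 ± 0.11, adjusted p = 0.000533, limma). Those lower included the NF-κB subunits *Nfkb2*, at 1076 and 1069 in the controls and 237 and 189 in the cKO mice (log2 difference −2.34 ± 0.14), and *Rela*, at 994 and 1030 against 285 and 276 (−1.85 ± 0.11), and the lymphotoxin receptor *Ltbr*, at 1421 and 1455 against 434 and 334 (−1.91 ± 0.15). The controls were close to each other in these genes, and both cKO mice lay outside them. Of the 25, 8 were lower and 7 higher with epithelial marker scaling, against 2767 and 4738 of all 13983 genes. The median was −0.44 without control mouse 1. With the GC correction 10 were lower (40.0%, against 17.8% of all genes) and 8 higher (32.0%, against 18.05%) and the median was −0.01, with *Nfkb2* at −1.11, *Rela* at −0.63, *Ltbr* at −0.53, *Tlr4* at 0.68 and *Tlr3* at 0.58.

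The machinery that carries the receptor through the cell had more genes called higher than lower, which was not so with the GC correction. With library total scaling 13 were higher and 12 lower, against 3091 and 4885 across the table. Of 39 genes of endosomes, exocyst, sorting adaptors and membrane fusion, 38 were tested, 17 were higher (44.7%, against 29.0% of all genes tested) and 8 lower (21.1%, against 27.7%) in the cKO mice (median 0.46, against −0.04 over all genes tested). *Mal2*, a membrane protein needed for transcytosis in polarised cells, had 3405 and 3181 in the controls and 13755 and 13283 in the cKO mice (log2 difference 2.04 ± 0.10, adjusted p = 0.000533, limma). *Vps35*, of the retromer, was higher by 1.61 ± 0.09 and the kinase *Yes1*, which acts on pIgR transcytosis, by 1.52 ± 0.09. Lower were *Rab11fip5* of recycling endosomes (−2.78 ± 0.32), the kinase *Mapk3* (−1.88 ± 0.12) and the early endosome GTPase *Rab5c* (−1.70 ± 0.10). With the GC correction 8 were higher (21.1%, against 18.05% of all genes) and 9 lower (23.7%, against 17.8%), and the median was −0.04. *Mal2* was then at 1.37, *Vps35* at 0.41, *Yes1* at 0.53, *Rab11fip5* at −1.66, *Mapk3* at −0.91 and *Rab5c* at −1.12, and all 6 were still called.

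**Figure D4:**
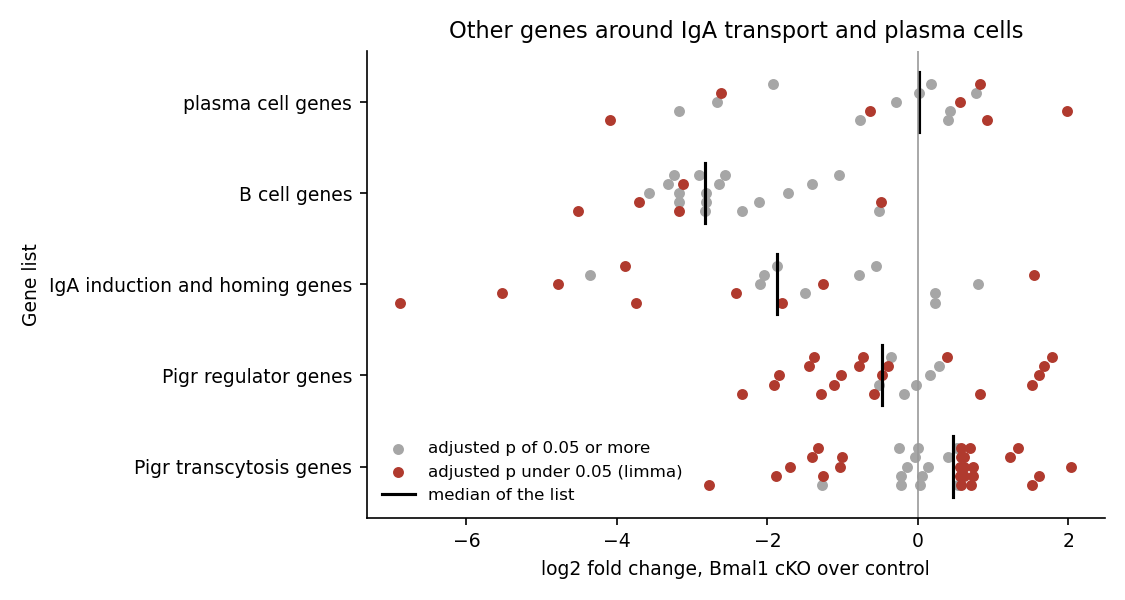
Log2 difference, cKO minus control, of each tested gene of the plasma cell, B cell, IgA induction, Pigr regulator and Pigr transcytosis lists, with 1 point per gene, called genes in red and the median of each list as a black line. All 22 B cell genes lie below 0, with a median of −2.82, and the plasma cell list has genes on both sides, with a median of 0.02.

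Markers of other cells also differed between the mice, and their part in the results was not tested. Of 11 stromal and endothelial markers 10 were lower (90.9%, against 27.7% of all genes tested), with a median log2 difference of −3.76, or −2.76 without control mouse 1. Their summed normalized counts were 16195 and 3673 in the controls and 576 and 668 in the cKO mice. Those of 10 T cell markers were 570 and 156 in the controls and 38.1 and 83.8 in the cKO mice, and no count of calls is given for them, since 2 of the 7 tested would have passed the filter on the other 3 mice. In the sums of both lists, as in the B cell and immunoglobulin genes, control mouse 1 was highest. The sums of myeloid markers had the controls in the other order, at 10652 and 24186, with 2439 and 2210 in the cKO mice. Still, 6 of these 11 markers were highest in control mouse 1. Of the 11, 10 were lower (90.9%, against 27.7% of all genes tested). The median log2 difference of the 11 was −3.28, or −2.90 without control mouse 1. *Ptprc*, the pan-leukocyte gene of CD45, had 1259 and 745 in the controls and 315 and 414 in the cKO mice (log2 difference −1.42 ± 0.28, adjusted p = 0.00865, limma). *Cd2* was at 0 in both cKO mice and *Cd5* in 1, and no marker of the stromal or myeloid lists was at 0 in any mouse. The leading markers were *Col3a1*, at 4774 and 927 in the controls and 155 and 119 in the cKO mice, *S100a8*, at 1424, 8066, 362 and 174, and *Lck*, at 103, 48.3, 5.14 and 28.4. Epithelial sums were 192998 and 229694 in the controls and 209102 and 218405 in the cKO mice, so the groups overlapped. Of the 18 epithelial markers 7 were lower (38.9%, against 27.7% of all genes tested) and 4 higher (22.2%, against 29.0%). With the GC correction the counts turned to 2 lower (11.1%, against 17.8% of all genes) and 8 higher (44.4%, against 18.05%). The median moved from −0.39 to 0.32 with that correction and was −0.49 without control mouse 1.

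**Figure D5:**
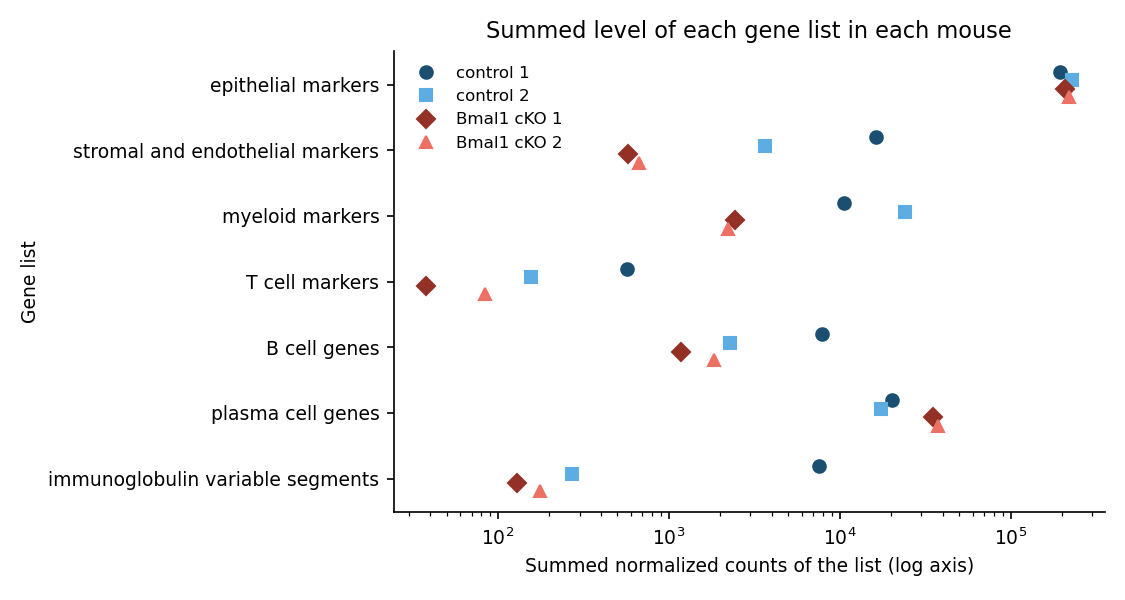
Summed normalized counts of the variable segment, plasma cell, B cell and marker lists in each mouse, on a log scale, with 1 point per mouse. Control mouse 1 is the highest for the variable segment, B cell, T cell and stromal lists and control mouse 2 for the myeloid list, and the epithelial sums of the 4 mice lie between 192998 and 229694.

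The genes nearest in pattern to each of 3 members were sought by the smallest root mean square difference of centred log2 counts over the 4 libraries, among 9983 tested genes with a mean of at least 100. Nearest to *Pigr* were *Camk1d* (0.0564), *Ttc38* (0.0710) and *C1galt1c1* (0.0769). *Camk1d*, for example, had 788 and 1012 in the controls and 1182 and 1603 in the cKO mice. Nearest to *Ccl28* were *Gt(ROSA)26Sor* (0.0571), *Ccdc39* (0.0633) and *Pof1b* (0.0916), the last at 1218 and 1415 in the controls and 6748 and 7725 in the cKO mice. *Jchain* had no close match. Its nearest genes were *Mmp3* (0.731), *Igkc* (0.969) and *Adamdec1* (1.01), and all 3 were highest in control mouse 1, with *Mmp3* at 1540 and 34.7 in the controls and 39.1 and 28.4 in the cKO mice. With 4 points per gene, many genes can match a pattern, and no relation between these genes follows from it.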

How the data were processed

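RNA-seq was performed on colonic epithelium of 2 control and 2 *Bmal1* cKO mice. The authors aligned reads to GRCm38 with STAR and ran DESeq2, and the counter and strand handling are not given in the sources used here. The library kit is named differently in the labels and the methods. Per library, the deposited value is a signal, the gene count after division by the size factor. Also deposited, and not used, were the log2 fold changes, Wald score and p-value columns of the comparison by the authors. Whole reads were recovered for 100% of values in each library (within 0.01). As computed here, log2(value + 1) was fitted with limma 3.58.1 (trend, two-sided, Benjamini-Hochberg, threshold 0.05) for 13983 genes with a mean of at least 10. On the recovered reads, edgeR 4.0.16 called 3812 genes lower and 3861 higher, and limma 3871 and 4059. DESeq2 1.42.0, other scalings, a loess correction for GC content and length (span 0.3), a replicate block and leaving out each mouse were alternatives. Fits were tested on simulated data. A fold change on this scale understates the change of low genes. Intervals and the floor of 3 reads cover counting error only, and they take reads as independent although reads were not counted by molecule. An exact permutation test of 2 against 2 mice cannot go below p = 0.333. Annotation was matched for 16003 of 16015 genes (GENCODE M21).

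The genes followed, and all lists, were chosen with earlier results of these data known. Besides these, the text names every listed immunoglobulin constant gene, the 3 lowest and 3 highest tested genes of each list with certain set genes, the leading gene of each marker list, and the 3 genes nearest in pattern to *Pigr*, *Ccl28* and *Jchain*. *Blk*, *Spib*, *Ell2*, *Tnfrsf13b*, *Tgfb1*, *Tgfb3*, *Itga4*, *Itgb7*, *Aldh1a3*, *Cd2*, *Cd5*, *Ccl20* and the variable segments were named after their values were seen. A few genes that this rule names are not reported here.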

Additional observations from a re-analysis of the deposited data

How the results depend on the processing

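The direction of each of the 7 listed genes was the same under every alternative except *Jchain* without control mouse 1, at 1.21. *Pigr* was 0.35 with library total scaling and 0.86 with epithelial marker scaling. *Ccl28* was 2.37 with library total scaling, 2.89 with epithelial marker scaling and 1.63 with the GC and length correction. These scalings moved the median of all genes by −0.22 and 0.28, and of the genes called 51.2% were higher in the analysis reported, 38.8% with total scaling and 63.1% with epithelial scaling. Across the table the analysis reported called 3871 genes lower and 4059 higher of 13983, and total scaling 4885 and 3091. Epithelial scaling called 2767 and 4738, DESeq2 3803 and 3719, and the GC correction 2492 and 2522 of 13975. The list counts that follow are out of 17 plasma cell, 22 B cell, 19 IgA induction, 25 regulator and 38 transcytosis genes. They are given beside these table-wide shifts, and nothing is read from them alone. Genes called lower on the plasma cell list numbered 5 with total scaling, 1 after GC correction and 5 with DESeq2. Those called higher numbered 7 with epithelial scaling and 5 after GC correction. With epithelial scaling 16 B cell genes, 8 *Pigr* regulators and 8 variable segments were lower and 2 IgA induction genes higher. With GC correction 1 variable segment was lower, 0 IgA induction genes and 8 transcytosis genes were higher. DESeq2 called 17 B cell genes and 13 variable segments lower. Of the 25 variable segments tested, 22 passed the filter only through control mouse 1, so their counts of calls, here and under leaving out a mouse, are largely built in and nothing is read from them. The replicate numbers did not pair the mice (correlation of deviations −0.09), and with the replicate block 8 B cell genes were lower, and 3789 genes lower and 3899 higher across the table. The cause of these shifts was not tested.

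Leaving out each mouse in turn, where the lone mouse of a group is assumed to vary like the others, gave 2205 to 2852 genes lower and 2654 to 3154 higher. The plasma cell list ran from 2 to 5 lower and 2 to 3 higher, B cell genes from 1 to 15 lower, IgA induction genes from 2 to 10 lower with 1 higher, regulators from 8 to 10 lower with 5 higher, transcytosis genes from 6 to 8 lower and 11 to 15 higher, and variable segments from 0 to 16 lower and 0 to 1 higher. Log2 differences ran from 0.28 to 0.87 for *Pigr*, 2.49 to 2.71 for *Ccl28*, −5.69 to 1.21 for *Jchain*, −7.31 to −1.38 for *Igha*, −6.37 to −1.15 for *Igkc*, −5.03 to −2.23 for *Ighm* and −4.66 to −1.46 for *Mzb1*.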
